A study of Homo sapiens with 6 samples.

Results

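The genes described here are the Toll-like receptors TLR1 to TLR6, their shared adaptor MYD88, the cytosolic receptors NOD1 and NOD2, and the co-receptor CD14, given by name. Of these 10 genes 9 were measured, out of 18404 genes tested. TLR5 had no probe set with 1 gene in the annotation used and was not analysed here. The arrays came from HaCaT, a spontaneously immortalised human keratinocyte line, with RNA taken 72 hours after lentiviral knockdown. Lentivirus carrying an shRNA to TP63 was given to 3 samples (shTP63) and a control vector to the other 3 (shControl). The product of TP63 is p63, a transcription factor of basal keratinocytes, and the series asks how it and the chromatin remodelling subunit ACTL6A bear on Hippo-YAP in squamous carcinoma. All samples are of a single cell line, and nothing in the labels says that replicates were separate cultures, so p-values here reflect only the spread among these arrays and that spread may be technical.

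Toll-like receptors are membrane proteins that bind conserved microbial molecules through a leucine-rich repeat domain and signal through a cytoplasmic TIR domain. TLR2 pairs with TLR1 or TLR6 to bind bacterial lipopeptides, TLR4 binds lipopolysaccharide with help from CD14, and TLR3 binds viral RNA duplexes in endosomes. Except for TLR3, which uses the adaptor TICAM1 (TRIF), these receptors recruit MYD88, which passes the signal to IRAK kinases and on to NF-kappa-B. NOD1 and NOD2 bind fragments of bacterial peptidoglycan in the cytosol and signal through the kinase RIPK2. Keratinocytes use such receptors to sense microbes at the skin surface and answer with chemokines and antimicrobial peptides.

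Promoter windows from RefSeq (GRCh38.p14, 250 bases before to 50 after the start of the gene) are shown for the receptors with large differences that have an entry, TLR6, TLR2 and CD14, and for TLR3 and MYD88, which differed in opposite directions and hold the same motif. The windows run along the strand of the gene. They lie at chr4:38856768-38857067 (minus strand) for TLR6, chr4:153684030-153684329 (plus strand) for TLR2, chr5:140633126-140633425 (minus strand) for CD14, chr4:186068906-186069205 (plus strand) for TLR3 and chr3:38138411-38138710 (plus strand) for MYD88. Capitals mark the motif matches described after the sequences.
TLR6: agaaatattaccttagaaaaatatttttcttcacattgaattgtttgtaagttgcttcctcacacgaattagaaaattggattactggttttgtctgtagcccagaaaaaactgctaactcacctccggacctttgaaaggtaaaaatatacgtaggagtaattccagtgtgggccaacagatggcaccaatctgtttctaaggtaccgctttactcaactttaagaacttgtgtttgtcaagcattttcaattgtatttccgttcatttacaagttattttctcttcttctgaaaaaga
TLR2: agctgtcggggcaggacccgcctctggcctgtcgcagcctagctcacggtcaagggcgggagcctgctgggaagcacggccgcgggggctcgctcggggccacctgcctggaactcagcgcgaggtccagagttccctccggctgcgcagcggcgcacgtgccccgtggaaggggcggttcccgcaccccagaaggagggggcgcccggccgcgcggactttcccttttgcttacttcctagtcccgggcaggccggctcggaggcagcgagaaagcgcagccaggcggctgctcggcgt
CD14: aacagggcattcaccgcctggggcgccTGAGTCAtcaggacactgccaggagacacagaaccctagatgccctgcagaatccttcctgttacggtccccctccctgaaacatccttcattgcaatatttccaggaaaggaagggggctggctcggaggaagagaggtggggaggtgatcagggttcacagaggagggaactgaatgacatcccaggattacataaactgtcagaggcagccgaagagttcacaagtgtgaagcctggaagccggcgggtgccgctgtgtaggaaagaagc
TLR3: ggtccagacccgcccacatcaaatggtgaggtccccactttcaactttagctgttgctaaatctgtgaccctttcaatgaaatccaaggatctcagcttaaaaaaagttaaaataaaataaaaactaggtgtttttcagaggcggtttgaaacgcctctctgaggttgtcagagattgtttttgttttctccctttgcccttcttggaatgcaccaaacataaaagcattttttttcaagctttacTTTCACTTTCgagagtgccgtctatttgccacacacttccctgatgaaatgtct
MYD88: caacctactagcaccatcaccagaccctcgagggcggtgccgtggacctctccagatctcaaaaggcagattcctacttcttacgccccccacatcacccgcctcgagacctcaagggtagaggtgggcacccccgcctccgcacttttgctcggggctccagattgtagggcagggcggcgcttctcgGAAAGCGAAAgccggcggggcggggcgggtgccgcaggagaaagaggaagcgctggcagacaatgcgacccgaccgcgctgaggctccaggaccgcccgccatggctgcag

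Motifs of 4 factors or factor families were searched on both strands in the 10 windows available. These cover 9 of the 10 listed genes, with TLR5 among them, whereas TLR1 had no window and was not searched. The AP-1 motif TGANTCA occurred only in the CD14 window, 223 to 217 bases before the start, and occurs in 7.71% of the 35116 windows of this length in RefSeq. The core of the interferon-stimulated response element (GAAA, any 2 bases, GAAA) occurred in TLR3, from 4 bases before the start to base 6 after it, and in MYD88, 61 to 52 bases before the start. It occurs in 3.57% of all windows. The NF-kappa-B motif and the decamer bound by the p53 family, to which p63 belongs, had no match in the 10 windows and are found in 5.91% and 6.63% of all windows. The GC content of the shown windows ranged from 34.7% in TLR6 to 72.7% in TLR2.

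The comparison of shTP63 with shControl asked how the RNA of these sensors differs when p63 is depleted. The receptors of bacterial lipopeptides and of lipopolysaccharide were higher in shTP63, led by TLR6 at 2.19-fold, TLR1 at 1.82-fold, CD14 at 1.63-fold and TLR2 at 1.53-fold. TLR4 and TLR3 were higher by smaller amounts, MYD88 was lower, and NOD1 and NOD2 did not pass the test. In limma's moderated test, adjusted over all genes at a threshold of 0.05, 7 of the 9 genes passed, where 41.5% of all genes did. Of these 6 rose and 1 fell, where 16.4% of all genes rose and 25.1% fell. The median difference of the 9 genes was 0.26 on the log2 scale, against -0.01 for all genes tested. The 3 shTP63 values lay apart from the 3 shControl values in 7 of the 9 genes, as in 51.4% of all genes. Rises that reached 0.5 on the log2 scale were seen in 4 of the 9 genes and in 3.12% of all genes, a limit chosen after the values were seen.

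**Figure D1:**
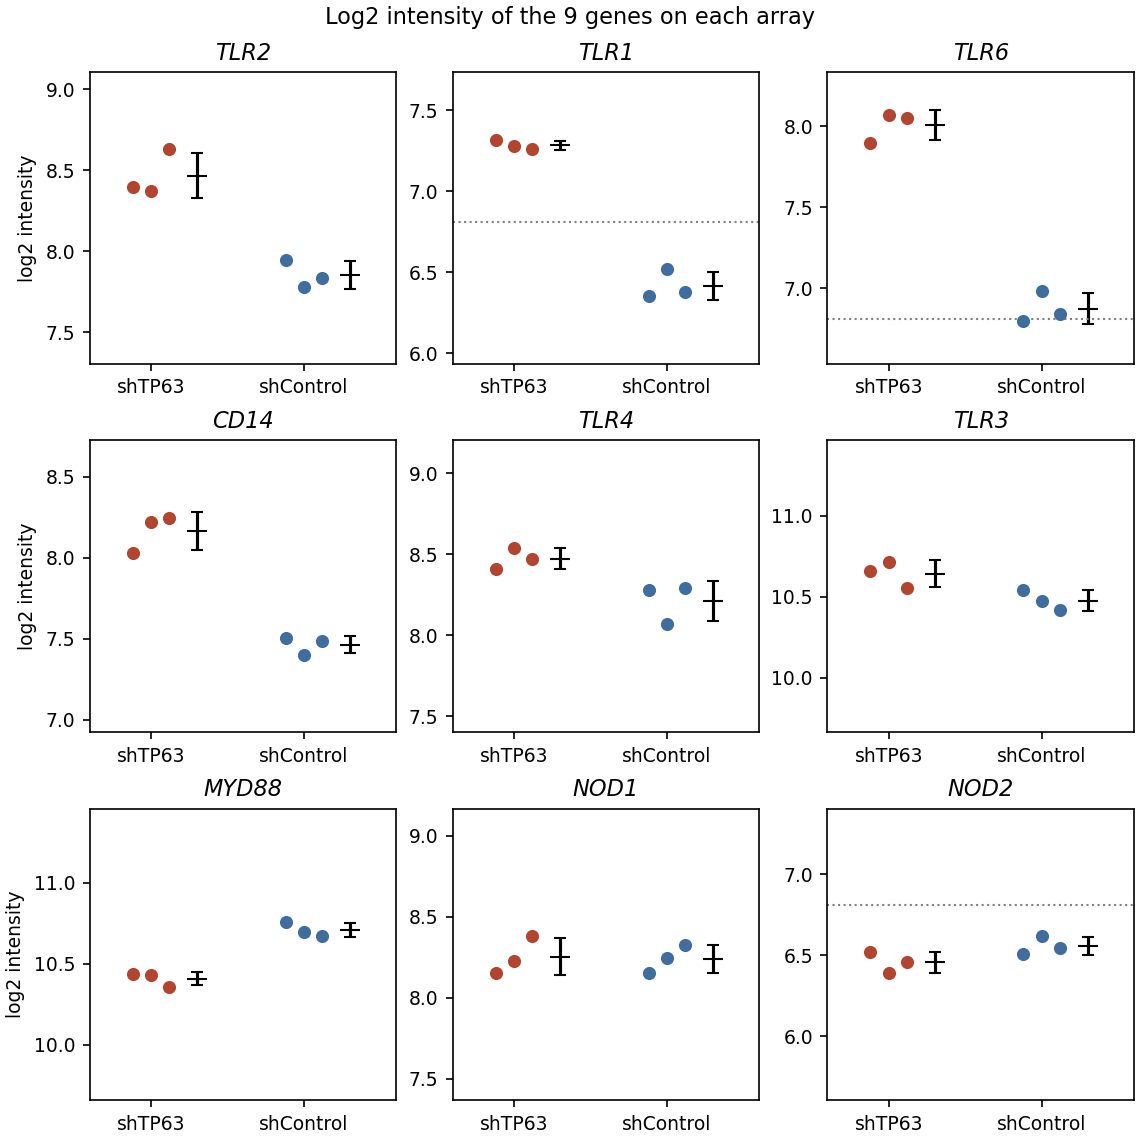
Log2 intensity (y axis) of each gene on the 3 shTP63 and the 3 shControl arrays, with the mean and SD of each group beside the points. Every panel spans the same range of 1.8 log2 units, and the dotted line, where it falls within a panel, is the 95th percentile of olfactory receptor genes (6.81). The groups are furthest apart for TLR6 and overlap for NOD1 and NOD2.

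TLR2, the common partner in both lipopeptide receptors, had log2 intensities of 8.40, 8.37 and 8.63 in shTP63, against 7.94, 7.78 and 7.83 in shControl. All shTP63 values were above all shControl values, and shTP63 replicate 3 was the highest. The difference was 0.61 ± 0.075 (SE, limma adjusted p = 0.000205).

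TLR1, the partner of TLR2 for triacylated lipopeptides, had values of 7.31, 7.28 and 7.26 in shTP63, against 6.35, 6.52 and 6.38 in shControl. The shTP63 values lay close together and well above the shControl values, all of which were under 6.81. That level is the 95th percentile of the mean levels of 359 olfactory receptor genes, a class that is mostly silent outside the nose and served as a measure of background. The difference was 0.87 ± 0.053 (SE, limma adjusted p = 5.90e-06), and its size is uncertain because a level near background compresses a change.

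TLR6, the partner of TLR2 for diacylated lipopeptides, had values of 7.90, 8.07 and 8.05 in shTP63, against 6.80, 6.98 and 6.84 in shControl. The groups were separated by most of a log2 unit, and the shControl mean of 6.87 was just above the background level. The difference of 1.13 ± 0.066 (SE, limma adjusted p = 4.41e-06) was larger in size than that of 99.6% of all genes tested. The calls of TLR1, TLR2 and TLR6 held in every alternative in which each gene was tested. TLR1 and TLR6 are close relatives with largely shared sequence in the TIR domain, so their separate values are uncertain where probes could match both.

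**Figure D2:**
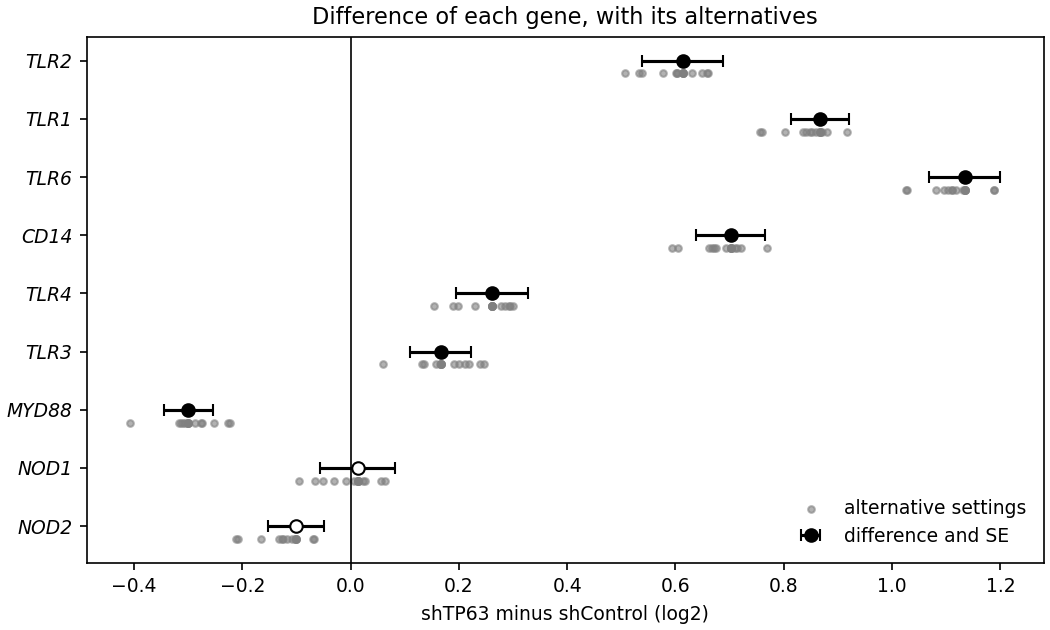
Difference between shTP63 and shControl (x axis, log2) for each gene, with its standard error; filled circles passed limma's test and open circles did not. Grey points are the same difference under each alternative setting. Only NOD1 has grey points on both sides of 0.

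CD14, which hands lipopolysaccharide to TLR4 and also serves TLR2, had values of 8.03, 8.22 and 8.25 in shTP63, against 7.50, 7.40 and 7.49 in shControl. The groups did not overlap, and shTP63 replicate 1 was the lowest of its group. The difference was 0.70 ± 0.064 (SE, limma adjusted p = 4.25e-05). CD14 is best known as a marker of monocytes, so markers of other cell types were set beside it. Of 13 monocyte and macrophage markers measured, 2 rose (15.4%) and 1 fell (7.69%), where 16.4% of all genes rose and 25.1% fell. CD68 rose by 0.75 ± 0.056 and TYROBP by 0.24 ± 0.060 (a call lost after centring on the array median, adjusted p = 0.0639). FCGR3A fell by 0.32 (SE 0.107, limma adjusted p = 0.0376). The FCGR3A call was lost without any 1 of shControl replicates 1 and 2 or shTP63 replicates 1, 2 and 3 (adjusted p from 0.0534 to 0.107), and both its groups lay under the background level. The summed linear intensity of the 13 markers was 1982 to 2094 in shTP63, against 1579 to 1741 in shControl. Without CD68, a lysosomal protein that is also made by other cells, the sums were 1168 to 1225 in shTP63 and 1102 to 1209 in shControl, which overlap. CD68 had the largest rise of the 13 markers and its removal was not in the plan, so this overlap decides nothing. The pan-leukocyte marker PTPRC averaged 4.27 ± 0.053 in shTP63 and 4.31 ± 0.0020 in shControl (log2, SD, n = 3), and 9 of the 13 markers lay under the background level in both groups. None of 6 dendritic and Langerhans cell markers passed limma's test, and all 6 lay under the background level in both groups. Of 5 endothelial markers 1 fell (20%), and 4 lay under the background level in both groups. The 1 that fell was VWF (-0.18, limma adjusted p = 0.0135), whose call was lost without shControl replicate 3 (adjusted p = 0.0558). CDH5 lay above background, at 9.57 in shTP63 and 9.50 in shControl, and did not pass (limma adjusted p = 0.245). All samples were of the HaCaT line. Within that line, bulk RNA cannot tell more cells in a given state from more RNA per cell. The keratinocyte identity of the samples showed in KRT5, at 13.31 ± 0.025 in shTP63 and 13.82 ± 0.055 in shControl. Of 12 keratinocyte markers measured, 2 rose (16.7%) and 6 fell (50%), the largest fall being that of KRT15 at 0.91 (SE 0.047). Of all genes 16.4% rose and 25.1% fell, and in the brightest of 5 bins of level 44% fell. The number of these markers that rose was 4 after quantile normalization of all probe sets or cyclic loess, and 1 after centring.

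TLR4, the signalling receptor for lipopolysaccharide, had values of 8.41, 8.54 and 8.47 in shTP63, against 8.28, 8.07 and 8.29 in shControl. The groups did not overlap, but the gap between the nearest samples was small, and shControl replicate 2 was lower than its 2 companions. The difference was 0.26 ± 0.067 (SE, limma adjusted p = 0.0120), and it became 0.15 (adjusted p = 0.0644) with every array centred on its median. LY96, the protein that holds lipopolysaccharide in the TLR4 complex, lay under the background level in both groups, at 4.16 in shTP63 and 4.27 in shControl, and did not pass (limma adjusted p = 0.296).

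TLR3, the endosomal receptor for RNA duplexes, had values of 10.66, 10.71 and 10.55 in shTP63, against 10.54, 10.47 and 10.41 in shControl. The lowest shTP63 value was just above the highest shControl value. The difference was 0.17 ± 0.056 (SE, limma adjusted p = 0.0408). Its call was lost without shTP63 replicate 1 (0.16, adjusted p = 0.0973) or 2 (0.13, adjusted p = 0.134). The call was also lost without shControl replicate 2 (0.16, adjusted p = 0.0996) or 3 (0.14, adjusted p = 0.141). After centring on the array median the difference was 0.06 (adjusted p = 0.382).

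MYD88 went the other way, with values of 10.44, 10.43 and 10.36 in shTP63, against 10.76, 10.70 and 10.67 in shControl. All shTP63 values were below all shControl values. On the log2 scale MYD88 fell by 0.30 (SE 0.046, adjusted p = 0.000720 in limma), and over the alternatives the difference ranged from -0.41 to -0.22 with the call kept. With genes split by mean level into 5 bins of equal size, MYD88 was in the brightest, where the median difference of all genes was -0.10 and 44% of genes fell. TLR3 was in the same bin, in which 25.3% of genes rose.

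NOD1, which senses peptidoglycan fragments mainly of Gram-negative bacteria, had values of 8.15, 8.23 and 8.38 in shTP63, against 8.15, 8.24 and 8.33 in shControl. The groups overlapped almost completely, with a difference of 0.01 ± 0.069 (SE, limma adjusted p = 0.906). NOD2, which senses muramyl dipeptide, had values of 6.52, 6.39 and 6.46 in shTP63, against 6.51, 6.62 and 6.54 in shControl. Its groups overlapped and both lay under the background level, so a change may be compressed or missed. The difference was -0.10 ± 0.051 (SE, limma adjusted p = 0.155). It passed as lower after quantile normalization of all probe sets (-0.21, adjusted p = 0.0127) and after centring (-0.21, adjusted p = 0.0115).

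**Figure D3:**
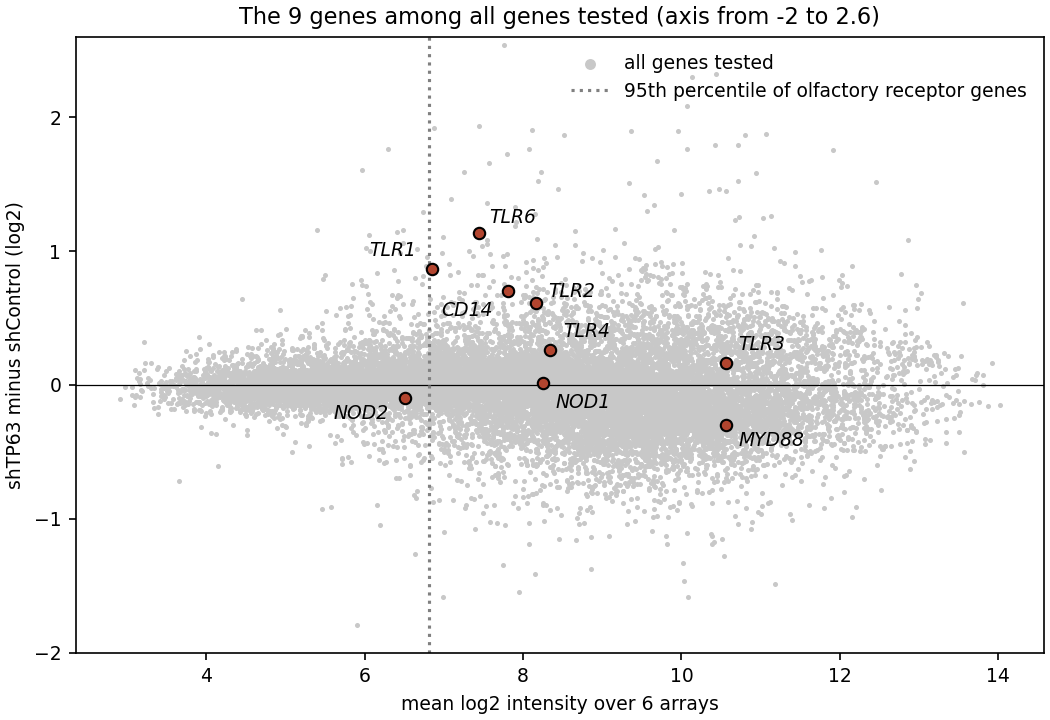
Difference between shTP63 and shControl (y axis, log2) against mean log2 intensity over the 6 arrays (x axis) for all 18404 genes, with the 9 genes in red and the 95th percentile of olfactory receptor genes as a dotted line. TLR6, TLR1, CD14 and TLR2 lie above the bulk of genes of like level, and NOD1 lies at 0.01. A few genes beyond the limits of the y axis are not drawn.

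Receptors that work together were set against each other as log2 ratios within each array, in 5 pairs, and tested with a two-sided exact permutation test. With 3 arrays against 3 this exact permutation test cannot go below p = 0.1, so no pair could pass 0.05. The ratio of TLR6 to TLR2 was 0.52 higher in shTP63 than in shControl, without overlap (exact p = 0.1, adjusted over the pairs 0.167). The ratio of CD14 to TLR4 was 0.44 higher, also without overlap (exact p = 0.1, adjusted 0.167). The ratio of TLR1 to TLR6 differed by -0.27, without overlap (exact p = 0.1, adjusted 0.167). Because TLR1 lay under the background level in shControl, its rise is compressed by an unknown amount, so the ratios that hold TLR1 do not rank its rise against those of TLR6 or TLR2. TLR6 lay close to that level in shControl as well. The groups overlapped for TLR1 over TLR2 (0.25, exact p = 0.2, adjusted 0.25) and for NOD2 over NOD1 (-0.11, exact p = 0.3, adjusted 0.3), of which NOD2 lay under the background level in both groups.

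TLR1 and TLR6 are neighbours on chromosome 4 in RefSeq, beside TLR10, which was not analysed here. FAM114A1, the next gene beyond TLR6, rose by 0.40 ± 0.046 (limma adjusted p = 0.000143), whereas KLF3, on the other side of the cluster, fell by 0.32 (SE 0.052, limma adjusted p = 0.00108). Around CD14 the nearest protein-coding genes SLC35A4, TMCO6, NDUFA2 and IK all fell, from 0.19 for TMCO6 to 0.69 for NDUFA2, the subunit of mitochondrial complex I (limma adjusted p from 1.52e-05 to 0.00475). ACAA1 and OXSR1, on either side of MYD88, fell by 0.40 (SE 0.063) and 0.39 (SE 0.048). Over the 31 nearest neighbours measured, 4 rose and 9 fell, or 12.9% and 29%, beside 16.4% and 25.1% of all genes. The choice to name these neighbours was made once their values were known.

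The genes most like TLR6, by the root mean square difference of centred log2 values over the 6 arrays, were VNN1 (0.0626), IL7R (0.0685) and COL4A2 (0.0714). VNN1 encodes a pantetheinase, IL7R the interleukin-7 receptor and COL4A2 a basement membrane collagen chain, and they differed by 1.02, 1.23 and 1.16. Those most like MYD88, the member with the largest fall, were RHOA (0.0162), SLC25A38 (0.0178) and RRAGA (0.0185), which differed by -0.29, -0.29 and -0.28. Genes picked for likeness over these same arrays must differ by about as much as TLR6 or MYD88. Their differences follow from the choice and are no separate result.

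The rest of the pathway was described in 8 lists by role, holding 99 measured of 108 listed genes. Of the 99 genes 32 rose (32.3%) and 21 fell (21.2%), where 16.4% of all genes rose and 25.1% fell. The median difference of the 99 genes was 0.04. The cytokines and chemokines that these receptors induce had the highest median of the lists, 0.89: 12 of 15 rose and none fell. Under the background level in both groups lay 4 of the 15, among them IL36G and CXCL3, which rose. The call of CXCL3 (0.16, limma adjusted p = 0.0240) was lost in 9 of 15 alternatives. The neutrophil chemokines CXCL8 and CXCL1 rose by 2.30 ± 0.049 and 1.46 ± 0.042, and the cytokine IL6 by 1.52 ± 0.049. Whether signalling by the receptors raised them was not tested. IFNB1, the interferon gene induced through TLR3, was at 4.40 in shTP63 and 4.30 in shControl, both under the background level, and did not pass (limma adjusted p = 0.280).

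**Figure D4:**
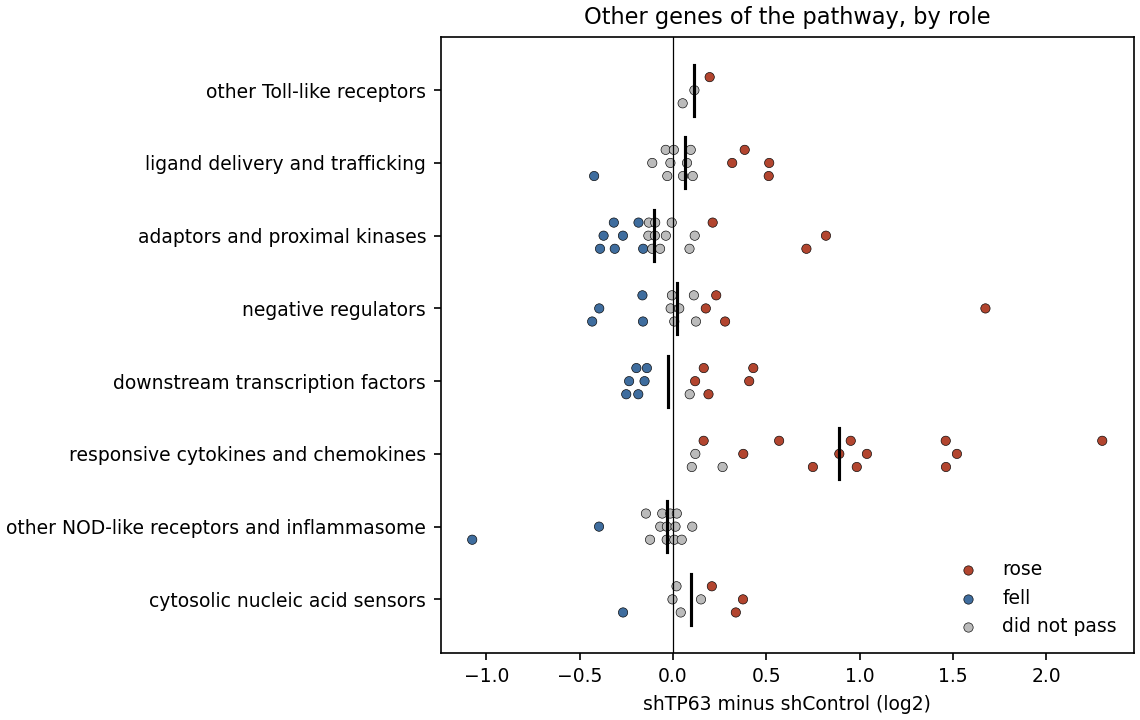
Difference between shTP63 and shControl (x axis, log2) of each measured gene of the 8 lists, coloured by limma's call, with the median of each list as a vertical bar. The cytokine and chemokine list lies furthest to the right, and CASP1 is the leftmost point.

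Of 20 adaptors and proximal kinases, 3 rose (15%) and 7 fell (35%), where 16.4% of all genes rose and 25.1% fell. By level the list spanned bins 2 to 5, counted from the dimmest, in which 8.67%, 25.4%, 43% and 44% of genes fell. The list had a median of -0.10, with 14 falls after centring and 5 rises after quantile normalization over probe sets with 1 gene. IRAK2, a kinase of the MYD88 complex, had values of 7.89, 7.78 and 7.85 in shTP63, against 6.90, 7.07 and 7.09 in shControl, a rise of 0.82 ± 0.061 (limma adjusted p = 1.48e-05). IKBKE, a kinase that activates interferon regulatory factors, had values of 10.37, 10.39 and 10.37 in shTP63, against 9.65, 9.64 and 9.69 in shControl, a rise of 0.72 ± 0.041 (limma adjusted p = 4.30e-06). The groups of both kinases were far apart. UBE2N, the ubiquitin-conjugating enzyme that works with TRAF6, fell by 0.37 (SE 0.043). TIRAP, which bridges TLR2 and TLR4 to MYD88, fell by 0.31 (SE 0.051, limma adjusted p = 0.00107). RIPK2, the kinase downstream of NOD1 and NOD2, was at 9.30 in shTP63 and 9.43 in shControl and was not called (limma adjusted p = 0.109), but passed as lower after centring (-0.24, adjusted p = 0.00803). TIRAP, RIPK2, LY96, PTPRC, TICAM1 and IFNB1 were named for their roles with their values known. TICAM1, the adaptor of TLR3, differed by 0.09 ± 0.046 (limma adjusted p = 0.164), and passed after quantile normalization over probe sets with 1 gene (0.16, adjusted p = 0.0151).

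Of 14 negative regulators, 4 rose and 4 fell (28.6% each), where 16.4% of all genes rose and 25.1% fell. In this list 2 fell without shControl replicate 2 or 3 and after cyclic loess, while 2 rose after centring. TNFAIP3, the ubiquitin-editing enzyme A20, had values of 10.49, 10.54 and 10.54 in shTP63, against 8.89, 8.84 and 8.81 in shControl. Its rise of 1.67 ± 0.044 was 3.19-fold (limma adjusted p = 8.61e-08). TOLLIP, an inhibitor of IRAK1, fell by 0.43 (SE 0.052), and the deubiquitinase USP25 fell by 0.40 (SE 0.049). Of 12 downstream transcription factors, 5 rose (41.7%) and 6 fell (50%), where 16.4% of all genes rose and 25.1% fell. In bins 3, 4 and 5 of level, counted from the dimmest, 18%, 18.5% and 25.3% of genes rose and 25.4%, 43% and 44% fell. JUN was higher by 0.43 ± 0.042, NFKB2 was higher by 0.41 ± 0.047 and IRF1 was lower, at a difference of -0.25 ± 0.051. Without shControl replicate 2 the counts of this list were 2 and 3, and 3 rose without shControl replicate 3, without shTP63 replicate 2 or 3, or with the replicate number as a block. Of 14 genes that deliver ligands or traffic receptors, 4 rose (28.6%) and 1 fell (7.14%), beside 16.4% and 25.1% of all genes. SLC15A4, an endolysosomal transporter of peptidoglycan fragments, rose by 0.51 ± 0.050, PGLYRP4, a peptidoglycan recognition protein, by 0.38 ± 0.052, and the receptor chaperone HSP90B1 by 0.32 ± 0.047.

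Among other NOD-like receptors and inflammasome genes, none of 14 rose in limma's test and 2 fell (14.3%), where 25.1% of all genes fell. After quantile normalization of all probe sets and after centring 6 of the 14 fell. CASP1, the protease that matures interleukin-1 beta, averaged 6.85 ± 0.083 in shTP63 and 7.93 ± 0.102 in shControl (log2, SD, n = 3). The groups did not overlap, and CASP1 fell by 1.08 (SE 0.065, limma adjusted p = 5.21e-06). PYCARD, the inflammasome adaptor, fell by 0.40 (SE 0.047). AIM2, a cytosolic DNA sensor with both groups under the background level, differed by -0.14 and did not pass (limma adjusted p = 0.0882). It passed as lower without shTP63 replicate 2 (-0.20, adjusted p = 0.0239), after quantile normalization of all probe sets (-0.21, adjusted p = 0.0197) and after centring (-0.25, adjusted p = 0.00627). Of the 14 genes, 7 lay under the background level in both groups. Of 8 cytosolic nucleic acid sensors, 3 rose (37.5%) and 1 fell (12.5%), beside 16.4% and 25.1% of all genes. The DNA sensor CGAS rose by 0.38 ± 0.044 and the RNA sensor RIGI by 0.34 ± 0.052, while MAVS, the adaptor of RIGI, fell by 0.27 (SE 0.040). Of 3 other Toll-like receptors measured, TLR7 had a difference of 0.20 ± 0.066 (limma adjusted p = 0.0386), with both groups under the background level. Its call was lost without any 1 of shControl replicates 1, 2 and 3 or without shTP63 replicate 2 (adjusted p from 0.0809 to 0.0895). In all, the TLR7 call was lost in 9 of 15 alternatives. These include quantile normalization of all probe sets (adjusted p = 0.136) and centring (adjusted p = 0.258). TLR8 and TLR9 did not pass.

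The 6 arrays held 32321 probe sets each, and arrays of the same group correlated across probe sets at r of 0.996 to 0.998, against 0.988 to 0.991 for arrays of different groups. The array medians were 7.54 to 7.57 in shTP63 and 7.44 to 7.47 in shControl on the log2 scale, and centring on them moved the median difference of all genes to -0.12. The level of TP63 was not analysed here, so every direction rests on the sample labels.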

How the data were processed

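Messenger RNA of 6 HaCaT samples was measured on 1-colour arrays. Per the submitters' processing notes, values were made with RMA in R 2.15.1, and the deposited values are intensities on a linear scale, of which log2 was taken here. RMA commonly brings arrays to a common distribution, which removes a shift shared by all probe sets. The deposited values still differed between groups, with array medians of 7.54 to 7.57 in shTP63 and 7.44 to 7.47 in shControl. The cause of that difference was not tested. The platform annotation named 19158 of 32321 probe sets with 1 gene, and the probe set with the highest mean was used for each of 18404 genes. The build of the array is not given in the sources used here, and coordinates are those of RefSeq GRCh38.p14. Each gene measured of the 10 had 1 probe set.

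Groups and replicate numbers came from sample titles. In R 4.3.3, lmFit and eBayes of limma 3.58.1 were run on every gene with the group as the sole term. Two-sided p-values were adjusted over the 18404 genes by Benjamini-Hochberg, and 0.05 was the threshold. The fit was tested on simulated data. Precision rests on 3 arrays per group, with a median SE of 0.053. Log2 values had been foreseen in the plan. Members, lists and alternatives were chosen with earlier results of these data known. The naming rule took all members, the up to 3 genes of each list with the smallest adjusted p, and the 3 genes most like the members with the largest rise and fall.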

Additional observations from a re-analysis of the deposited data

How the results depend on the processing

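Under 16 alternatives the rises of TLR1, TLR2, TLR6 and CD14 and the fall of MYD88 kept their direction and call wherever the gene was tested, over ranges of 0.76 to 0.92, 0.51 to 0.66, 1.03 to 1.19, 0.59 to 0.77 and -0.41 to -0.22. TLR1 and NOD2 were not tested without the dimmest 40% of probe sets. The number of the 9 genes that rose was 4 to 6, and with each array left out in turn 5 to 6. The number that fell was 2 after quantile normalization of all probe sets and 2 after centring on the array median, against 1, the added gene being NOD2. Centring gave 1782 rises and 7932 falls over all genes, so falls made up 81.7% of calls, against 60.5% on the deposited scale (3015 rises, 4619 falls). Of the pathway genes 33 fell after centring and 13 at an adjusted p of 0.01, against 21. Of 45 genes that the rule took from the measured members and the lists, without the genes most like TLR6 and MYD88, 35 passed. Of these 29 kept direction and call in every alternative run, 6 lost the call in at least 1, and 0 of the 45 changed sign with a call. The cause of these changes was not tested. With the replicate number as a block 6 of the 9 genes rose and 1 fell, as without it, and over all genes 2832 rose and 4333 fell. Deviations of samples with the same number correlated at -0.15, -0.04 and 0.13, which gave no sign that the numbers paired the samples. With so few samples these values cannot show that the samples were unpaired. Dim probe sets limit what can be seen for TLR1 in shControl and for NOD2.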
